A study of Mus musculus with 15 samples.

Results

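The genes described here are 10 that encode sarcomere and calcium-handling proteins of slow-twitch muscle fibres, measured in quadriceps muscle of adult mouse offspring. They were chosen by symbol as Myh7, Myl2, Myl3, Tnnt1, Tnni1, Tnnc1, Tpm3, Atp2a2, Casq2 and Myoz2, through the Ensembl identifiers of the table and GENCODE. All 10 were found among 50686 genes, and all 10 were among the 13499 genes tested. In the study, C57BL/6 mice of 8 weeks ate normal chow or a high-fat diet (60%) over 6 weeks before mating with lean partners of 14 weeks. By its title the series addresses exercise of pregnant dams as a protection of adult offspring against metabolic effects of an obese parent.

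There were 5 groups with 3 libraries each. Controls had a chow-fed sire and a chow-fed dam, and the pregnant dam was sedentary, in a cage with a locked running wheel. In the maternal sedentary and maternal exercised groups the dam had eaten the high-fat diet, and her wheel was locked or free during pregnancy. In the paternal sedentary and paternal exercised groups the high-fat diet was the sire's, and his lean mate was sedentary or ran. All offspring were on chow and sedentary after birth and were sampled at 10 months, and the 1 control group served both arms. The parents numbered 4 on chow and 8 high-fat females in the first arm, and 4 on chow and 4 high-fat males in the second. Neither litter nor sex of the offspring is given in these sources, so p-values speak only of the spread among the sampled animals.

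The libraries held 18457663 to 26981745 reads. Defining transcripts of muscle fibres (Acta1, Ckm, Des, Ttn and Neb) summed to 77964 to 94921 RPM (reads scaled to an equal total of recovered reads per library). Transcripts of 14 hepatocyte genes exceeded 100 RPM in 4 libraries, namely control replicate 2 (154), maternal sedentary replicates 2 (3651) and 3 (416) and paternal sedentary replicate 1 (218). They were between 9.45 and 30.0 in the other 11. Sample titles are codes whose meaning the labels do not give. All 3 maternal sedentary libraries and maternal exercised replicate 3 have the same opening letters and digit in that code. Control replicates 1 and 2 and paternal exercised replicate 1 share another opening.

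Slow-twitch, or type I, fibres contract slowly, resist fatigue and are rich in mitochondria. Their sarcomere holds a slow myosin heavy chain with its light chains, a slow troponin complex and a slow tropomyosin on the thin filament. Slow fibres share some of these isoforms with the heart. Their calcium is pumped back into the sarcoplasmic reticulum by SERCA2, where fast fibres use SERCA1, and is buffered there in part by calsequestrin 2. In mice the quadriceps is a predominantly fast muscle in which slow fibres are a minority.

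Because the members varied together across libraries, promoter sequences are shown for 4 of them: Myh7 and Tnnc1, whose levels spanned the widest ranges together with Tnni1, and Casq2 and Myoz2, whose ranges were the narrowest. Each line gives the 250 bases before the RefSeq start site, 5′ to 3′ on the gene's strand (GRCm38.p6), with a match to an M-CAT box (CATTCC on either strand, the element bound by TEAD factors) or to a MEF2 site in capitals. The regions are chr14:54994627-54994876 on the minus strand for Myh7, chr14:31208062-31208311 on the plus strand for Tnnc1, chr3:102086165-102086414 on the plus strand for Casq2 and chr3:123034988-123035237 on the minus strand for Myoz2.
Myh7: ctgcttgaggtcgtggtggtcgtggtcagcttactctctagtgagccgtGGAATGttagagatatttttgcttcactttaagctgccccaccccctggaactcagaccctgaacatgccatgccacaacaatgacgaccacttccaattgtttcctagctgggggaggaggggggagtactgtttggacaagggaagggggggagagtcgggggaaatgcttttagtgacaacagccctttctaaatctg
Tnnc1: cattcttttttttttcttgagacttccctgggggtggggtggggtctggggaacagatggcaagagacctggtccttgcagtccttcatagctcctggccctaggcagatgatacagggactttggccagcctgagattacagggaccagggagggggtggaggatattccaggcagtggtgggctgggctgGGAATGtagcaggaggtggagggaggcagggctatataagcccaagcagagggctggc
Casq2: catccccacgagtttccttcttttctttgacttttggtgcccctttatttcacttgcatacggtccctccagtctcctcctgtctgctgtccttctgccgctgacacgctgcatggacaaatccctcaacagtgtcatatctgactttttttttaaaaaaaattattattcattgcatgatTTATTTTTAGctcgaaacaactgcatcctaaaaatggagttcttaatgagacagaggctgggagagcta
Myoz2: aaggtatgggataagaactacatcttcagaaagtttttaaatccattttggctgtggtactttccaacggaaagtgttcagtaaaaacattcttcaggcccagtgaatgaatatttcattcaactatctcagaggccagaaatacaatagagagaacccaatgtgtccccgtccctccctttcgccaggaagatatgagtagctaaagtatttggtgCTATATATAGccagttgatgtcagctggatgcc

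The RefSeq table of promoters held 9 of the 10 members. An M-CAT box lay at bases -201 to -196 from the start of Myh7 and at -58 to -53 from that of Tnnc1, both on the opposite strand. Myl3 held 2, so 3 of 9 members had a match, against 12.64% of all 32851 promoters searched over the same length. A MEF2 site lay at -69 to -60 in Casq2 and at -33 to -24 in Myoz2, 2 of 9 members, against 2.919% of all promoters. Tnni1, with the widest range of levels of the 10 members (12.4-fold), had a match to neither. Myl3, which held M-CAT boxes, had a narrower range (4.44-fold). A link between motif and range was not tested. The general muscle E box (CANNTG) matched in 9 of 9 members and in 66.22% of all promoters. A TATA box (TATAAA) matched in 2 of 9 against 12.37%, a CArG box in 1 of 9 against 1.467%, and the half-site of oestrogen-related receptors (TNAAGGTCA) in 1 of 9, Tpm3, against 1.138%. For Myl2 the RefSeq start is 7762 bases from the nearest GENCODE start, so its window may not be that of the transcript measured here. A match describes letters in a window and does not show that a factor binds there.

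The values below are counts normalized by the authors for library size. Myh7 encodes the slow, or beta, myosin heavy chain, the motor of type I fibres (ENSMUSG00000053093.15, chromosome 14, 54970684 to 54994626, minus strand, GRCm38). Its normalized counts were 8832, 30628 and 38166 in control replicates 1 to 3, 41403, 34679.9 and 25919 in maternal sedentary and 30503, 26484 and 14133 in maternal exercised libraries. They were 33449, 32614 and 24960.0 in paternal sedentary and 3842, 27089 and 23599.5 in paternal exercised libraries. Paternal exercised replicate 1 and control replicate 1 stood far below the other 13 libraries, maternal exercised replicate 3 was the next lowest, and every group overlapped every other. The highest library was 10.8-fold above the lowest.

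The ventricular and slow light chains bind the neck of the myosin head. Myl2, the regulatory light chain, averaged 8125 ± 4699 (SD, n = 3) in controls, 9626 ± 2677 in maternal sedentary, 8786 ± 3164 in maternal exercised, 10768 ± 3604 in paternal sedentary and 6698 ± 3524 in paternal exercised libraries, with a 4.96-fold range from 2632 to 13057. Myl3, the essential light chain, averaged 9441 ± 4549, 12692 ± 1543, 9821 ± 2681, 11801 ± 2497 and 7551 ± 3884 in the same order of groups, with a 4.44-fold range from 3261 to 14473. Both had their lowest value in paternal exercised replicate 1 and the next in control replicate 1, as Myh7 did.

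Tnnt1, Tnni1 and Tnnc1 encode the tropomyosin-binding, inhibitory and calcium-binding subunits of slow troponin. Tnni1 normalized counts were 1476, 6083 and 6492 in control, 7740.3, 6777 and 5294 in maternal sedentary and 5706, 4263 and 2653 in maternal exercised libraries. They were 6029, 5702 and 4363 in paternal sedentary and 623, 3839 and 4311 in paternal exercised libraries. Here all 3 paternal exercised libraries lay below all 3 paternal sedentary ones, by a margin of 4363 against 4311, while the other compared groups overlapped.

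Tnnc1, whose product is shared with the heart, stood at 1249.8, 3888 and 6471 in control, 5735, 5303 and 3305 in maternal sedentary and 5262, 3989 and 2293 in maternal exercised libraries. It stood at 5842, 5530.2 and 3472 in paternal sedentary and 563, 3794 and 4241 in paternal exercised libraries. Control replicate 3 was its highest library and paternal exercised replicate 1 its lowest, an 11.5-fold range, and all groups overlapped. Tnnt1 ranged 8.81-fold, from 1429 to 12592, with group means of 8327 ± 4649.5 in control, 10547 ± 1933 in maternal sedentary, 8322 ± 3322 in maternal exercised, 10476 ± 2412 in paternal sedentary and 6156 ± 4113 in paternal exercised libraries (SD, n = 3). Tpm3, which encodes the slow alpha-tropomyosin as well as cytoskeletal tropomyosins from other transcripts of the gene, ranged 10.2-fold, from 999 to 10224, with its highest group mean in paternal sedentary (7923 ± 2663) and its lowest in paternal exercised libraries (4532 ± 3100.0). The table counts whole genes, so slow and cytoskeletal Tpm3 transcripts are not separated.

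Atp2a2 encodes SERCA2, the calcium pump of slow fibres and heart, and is also active at a low level in most cells. Its normalized counts were 3758, 10155 and 18479.9 in control, 14850.0, 13802 and 10140.2 in maternal sedentary and 15624, 11688 and 7091 in maternal exercised libraries. They were 17465, 15991 and 10202 in paternal sedentary and 2654, 11676 and 12212 in paternal exercised libraries. The same pair of libraries was lowest, and control held both the second lowest and the highest library of the 15.

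Casq2 encodes calsequestrin 2, the calcium buffer of the slow and cardiac sarcoplasmic reticulum. It stood at 448, 491 and 1010.2 in control, 866, 724 and 439.8 in maternal sedentary and 802, 805 and 452 in maternal exercised libraries. It stood at 997, 919 and 420.3 in paternal sedentary and 328, 547 and 637 in paternal exercised libraries. The range was 3.08-fold, the smallest of the 10, and the second lowest library was paternal sedentary replicate 3 where for the other 9 members it was control replicate 1.

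Myoz2 encodes calsarcin-1, a Z-disc protein of slow and cardiac muscle that binds the phosphatase calcineurin. Its normalized counts were 1457, 2769 and 4002 in control, 4206, 2932 and 2303 in maternal sedentary and 3964, 3093 and 2366 in maternal exercised libraries. They were 4456, 4021 and 2422 in paternal sedentary and 1294, 3383 and 2741 in paternal exercised libraries. The range was 3.44-fold, again from paternal exercised replicate 1 upwards.

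**Figure D1:**
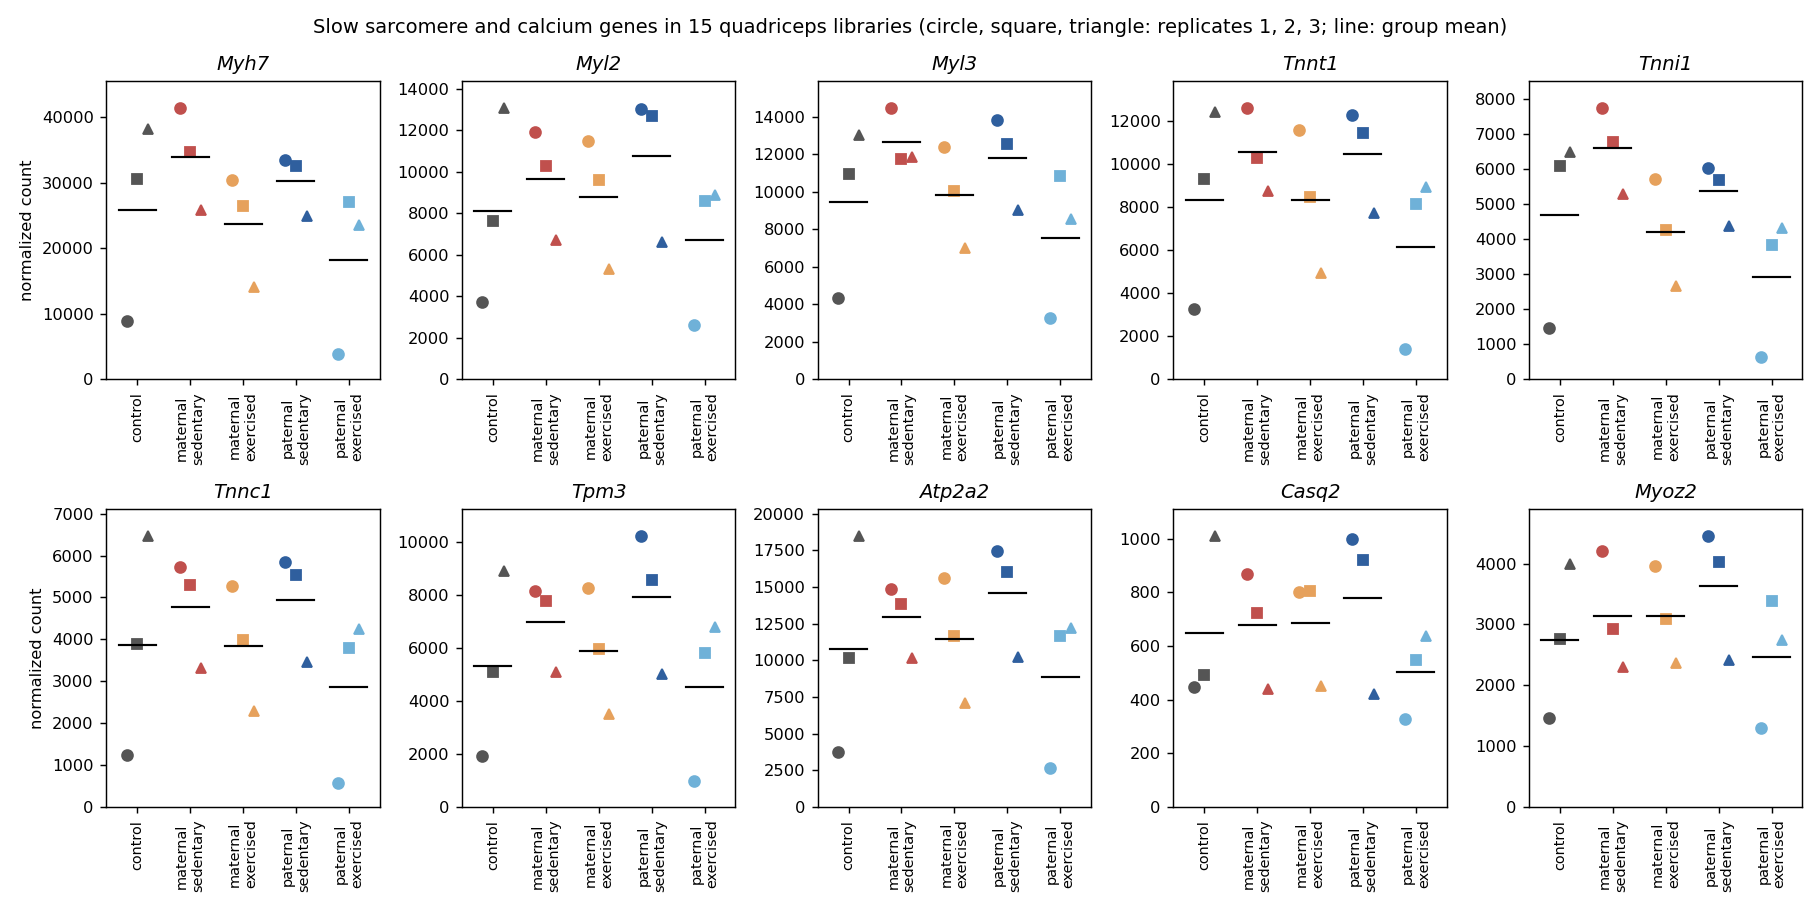
Normalized counts (linear axis from 0) of the 10 genes in each library, by group; circles, squares and triangles are replicates 1, 2 and 3 and the line is the group mean (n = 3). The lowest point of every panel is paternal exercised replicate 1, and control replicate 1 is second lowest in 9 of the 10 panels.

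Scaled to exon length, the most abundant members were Myl3 (a mean of 5020 normalized counts per kb of merged exons over the 15 libraries), Myl2 (4513), Tnnt1 (3977) and Tnnc1 (3902). Myh7 followed at 3066 per kb, then Atp2a2 at 1927, Tnni1 at 1321, Tpm3 at 1007, Myoz2 at 884 and Casq2 at 241. Merged exons were longer than the longest coding transcript for every member, such as 8616 against 6230 bases for Myh7 and 3600 against 1150 for Tnni1. Genes with many transcript forms, such as Tpm3, may thus be understated on this scale, and the order by transcript length may differ. For Myh4 and Atp2a1 the 2 lengths were equal, so slow levels set against theirs below may be understated. Exons of members overlapped those of other annotated genes by at most 6.07% of their length (Myh7 with an antisense gene), and the sources used here do not state whether the authors counted by strand.

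The ranking of group means was the same for every member only in the last place. Paternal exercised libraries had the lowest mean for 10 of 10 members, which varied together across libraries and are not 10 independent results. This place leaned on paternal exercised replicate 1. Without that library the members' median difference from controls was 0.25 log2, so above controls. The share of all genes with their lowest mean in this group is not given. The highest mean was that of paternal sedentary libraries for 6 members and of maternal sedentary libraries for 4. For Myh7 the order was maternal sedentary (34001 ± 7764, SD, n = 3), paternal sedentary (30341 ± 4679), control (25875 ± 15234), maternal exercised (23707 ± 8531) and paternal exercised (18177 ± 12536). No 2 neighbours in this order were separated, since the values of each pair overlapped. In a test of any difference among the 5 groups by limma, a linear model fitted across all genes, 0 of 10 members passed a Benjamini-Hochberg adjusted p of 0.05, with the smallest for Tnni1 (0.721, unadjusted 0.179) and the largest for Casq2 (0.85, unadjusted 0.644). Over all genes 0% passed after adjustment and 6.71% had an unadjusted p under 0.05, a level that 0 of 10 members reached.

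Most of the variation of these genes lay within groups. The standard deviation around the group means, on the log2 scale, had a median of 0.86 over the members against 0.26 over all 13499 genes tested, and each member exceeded 88.8% to 97.2% of them. Groups accounted for 15.2% to 33.0% of a member's sum of squares, with a median of 23.0%, against a median of 31.1% over all genes tested. In bulk muscle, fewer fibres of a type and less RNA per fibre cannot be told apart. Slow fibre content also differs between pieces of a muscle, and here differences between pieces and between animals cannot be told apart.

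Averaged over the 10 members as log2 deviations from each gene's mean, paternal exercised replicate 1 stood at -2.00 and control replicate 1 at -1.23. These libraries share a title code with control replicate 2, which stood at 0.10. Maternal exercised replicate 3 stood at -0.56, and the other 12 libraries between -0.11 and 0.68. Within groups, the highest library exceeded the lowest by 4.32-fold in paternal exercised, 3.75-fold in control, 2.07-fold in maternal exercised, 1.72-fold in paternal sedentary and 1.60-fold in maternal sedentary libraries. The 10 genes together took 0.0728% of the reads of paternal exercised replicate 1 and 0.59% of those of paternal sedentary replicate 1. The 2 sedentary high-fat groups were the narrowest on this measure, and the control group held a library near each end.

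The members varied together across libraries. Over the 15 libraries the Pearson correlation of the log2 values with Myh7 was 0.99 for Tnnt1 and Tnni1, 0.99 for Tnnc1, 0.98 for Myl3, 0.97 for Tpm3, 0.96 for Atp2a2 and 0.94 for Myl2. It was 0.89 for Myoz2 and 0.74 for Casq2. Spearman's rho ran from 0.80 (Casq2) to 0.92 (Tnni1). The largest two-sided permutation p over 100000 resamples was 8e-05 for r and 0.00052 for rho, the same after adjustment over the 9 members, and the smallest, 1e-05, was the smallest the resamples can give. All points share the scaling of their library.

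Without paternal exercised replicate 1 and control replicate 1, the pair farthest from the Myh7 median, r remained between 0.68 (Casq2) and 0.94 (Tnnt1 and Tnni1). With the group means removed it was 0.71 for Casq2, 0.91 for Myoz2 and 0.94 to 0.99 for the other 7. The slopes, given without a test, differed in size. Per log2 unit of Myh7, Tnni1 differed by 1.04, Tnnc1 by 1.02, Tpm3 by 0.96, Tnnt1 by 0.93 and Atp2a2 by 0.84 log2 units. The light chains had slopes of 0.70 (Myl2) and 0.66 (Myl3), Myoz2 0.52 and Casq2 0.42. The weakest pair of members was Tnni1 with Casq2 (r = 0.71).

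**Figure D2:**
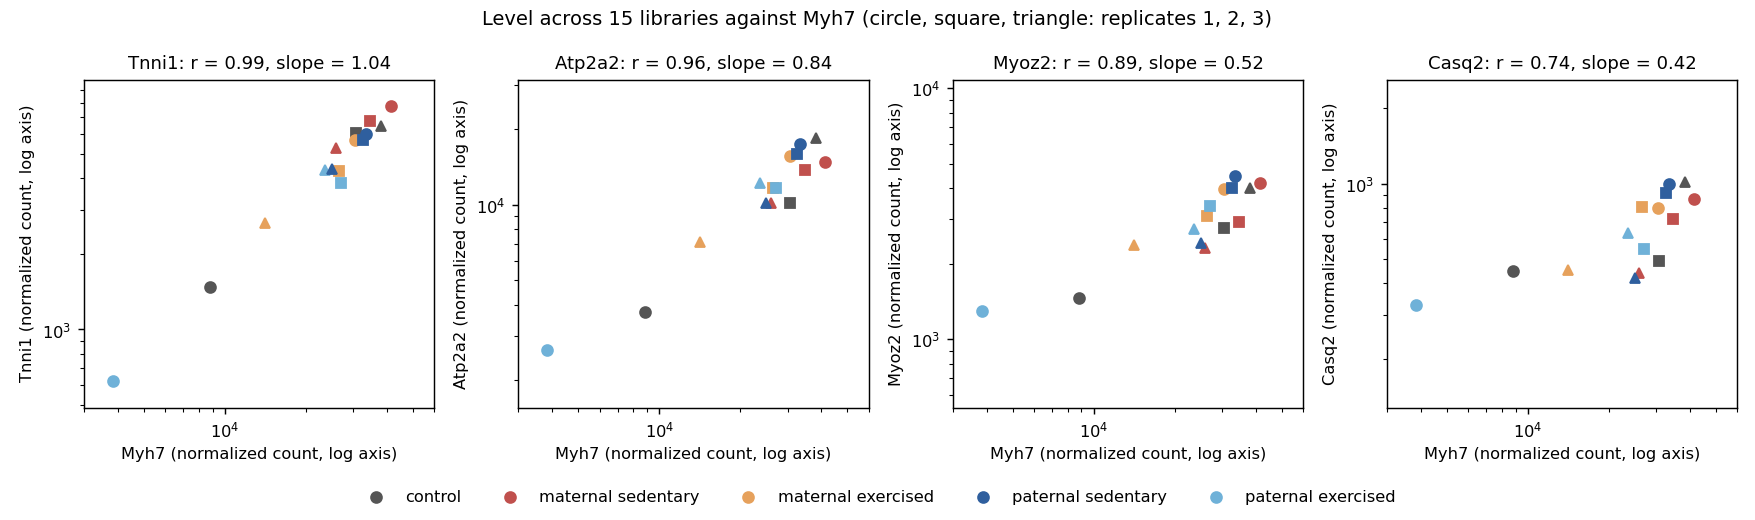
Normalized counts of Tnni1, Atp2a2, Myoz2 and Casq2 against Myh7 in the 15 libraries, both axes logarithmic and of equal span on the vertical axes; colours are groups, and circles, squares and triangles replicates 1, 2 and 3. Tnni1 follows Myh7 nearly in proportion (slope 1.04), while Casq2 covers a smaller range (slope 0.42) with more scatter.

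The first comparison asked how a high-fat diet of the dam, without exercise, left the slow programme of her offspring. All 10 members had higher means in maternal sedentary than in control libraries, as did 53.0% of all genes tested. The log2 differences ran from 0.10 (Casq2) to 0.75 (Tnni1), with a median of 0.54 against 0.01 over all genes tested. The members varied together across libraries, so their shared direction, here and below, is not 10 independent results. Myh7 differed by 0.62 ± 0.62 (SE), a fold of 1.53 with a 95% confidence interval from 0.61 to 3.86. With limma, 0 of 10 members passed, as did 0% of all genes, and 0 of 10 had an unadjusted p under 0.05, where 4.04% of all genes did. The groups overlapped for 10 of 10 members, whereas they did not for 8.02% of all genes. Without control replicate 1 the median was -0.07, and without control replicate 3 it was 0.97. It was 0.31 by edgeR, 0.32 by DESeq2, 0.23 with a score of hepatocyte transcripts as a covariate and 0.96 without the 4 libraries that held them. Myoz2 and Casq2 showed the smallest differences. No code of the titles is shared by these groups, so the code and the diet cannot be told apart here.

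Exercise of the high-fat dam was examined within the maternal arm. Compared with maternal sedentary libraries, maternal exercised libraries had lower means for 8 members and values near 0 for Casq2 (0.03 log2) and Myoz2 (0.01). The median was -0.33 and the largest difference that of Tnni1, -0.70 ± 0.63 (SE), a fold of 0.61 with an interval from 0.24 to 1.55. In limma's test 0 of 10 members and 0% of all genes passed. At an unadjusted p under 0.05 stood 0 of 10 members and 9.54% of all genes, and non-overlapping groups were found for 0 of 10 members and 17.2% of all genes. The median was 0.01 without maternal exercised replicate 3 and -0.59 without replicate 1 of that group. Within the title code shared by maternal exercised replicate 3 and the 3 maternal sedentary libraries, the mean of the members differed by -0.90, without replicates on the exercised side. The median was 0.06 with the hepatocyte score as a covariate, -0.58 without the 4 libraries and -0.91 when the title code entered the fit as a covariate.

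The exercised maternal group was also compared with controls. On the log2 scale the 10 members had higher means by 0.05 (Myh7 and Tnni1) to 0.33 (Tpm3), with a median of 0.19 against 0.02 over all genes tested. This direction depends on the scale: the means of the normalized counts themselves were lower than in controls for Myh7 (23707 against 25875), Tnni1 (4208 against 4684), Tnnt1 (8322 against 8327) and Tnnc1 (3848 against 3869). The intervals spanned a fold of 0.41 to 2.60 for Myh7 and 0.53 to 2.82 for Atp2a2, so for Myh7 they include both a lower and a clearly higher level. By limma 0 of 10 members and 0% of all genes passed, and 0 of 10 had an unadjusted p under 0.05 against 8.76% of all genes. Groups overlapped for 10 of 10 members and failed to overlap for 10.3% of all genes. The median turned to -0.33 without control replicate 1 and to -0.01 without maternal exercised replicate 1, and was 0.56 without control replicate 3. It was 0.05 by edgeR, 0.06 by DESeq2 and 0.35 without the 4 libraries with hepatocyte transcripts.

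In the paternal arm, the sedentary high-fat group was compared with controls. Again all 10 members had higher means, from 0.26 (Casq2) to 0.78 (Tpm3), with a median of 0.49 against 0.01 over all genes. Atp2a2 differed by 0.67 ± 0.56 (SE), a fold of 1.59 with an interval from 0.69 to 3.67. Again 0 of 10 members and 0% of all genes passed, 0 of 10 members and 2.87% of all genes had an unadjusted p under 0.05, and groups failed to overlap for 0 of 10 members and 5.7% of all genes. The median was 0.00 without control replicate 1 and 0.88 without control replicate 3. It was -0.51 when the title code entered the fit, although these 2 groups have no code in common, so that the fit joins them through the other groups.

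The largest differences were those between the offspring of exercised and sedentary dams in the paternal arm. All 10 members had lower means in paternal exercised libraries, from -0.58 (Casq2) to -1.29 (Tnni1) log2, with a median of -1.05 against 0.01 over all genes tested. Tnni1 averaged 2924 ± 2007 (SD, n = 3) against 5365 ± 883, a log2 difference of -1.29 ± 0.63 (SE) and a fold of 0.41 with an interval from 0.16 to 1.04. Myh7 differed by -1.16 ± 0.62, Tnnc1 by -1.21 ± 0.66, Atp2a2 by -0.97 ± 0.56 and Myoz2 by -0.62 ± 0.39.

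None of these passed. By limma 0 of 10 members had an adjusted p under 0.05 (all 0.991), as did 0% of all genes, and 0 of 10 had an unadjusted p under 0.05 (lowest 0.0583, Tnni1) where 3.76% of all genes did. For Tnni1 the groups did not overlap, 1 of 10 members and near the 10.6% of all genes. The sizes rested on 1 library. Without paternal exercised replicate 1 the median was -0.27, and it was -1.45 without replicate 3 of that group and -0.56 when the title code entered the fit. Within the title code shared by paternal exercised replicate 2 and paternal sedentary replicates 1 and 2, the mean of the members differed by -0.52 and Myh7 by -0.29, without replicates on the exercised side.

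Between the paternal exercised group and controls, the 10 members had lower means by -0.14 (Myoz2) to -0.83 (Tnni1) log2, with a median of -0.36. Myh7 differed by -0.69 ± 0.62 (SE), a fold of 0.62 with an interval from 0.25 to 1.56. In limma's test 0 of 10 members and 0% of all genes passed, although 13.7% of all genes had an unadjusted p under 0.05, which 0 of 10 members reached. The groups failed to overlap for 20.4% of all genes and for 0 of 10 members. Each of these groups held 1 of the lowest libraries. The median was 0.25 without paternal exercised replicate 1, 0.01 without control replicate 3, -0.95 without control replicate 1 and -1.03 when the title code entered the fit as a covariate. Without the first replicate of both groups it was -0.28, an alternative chosen after seeing the data. Within shared title codes the mean of the members differed by -1.44 (1 library against 2) and -0.57 (1 against 1).

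Whether exercise of the dam acted differently in the maternal and paternal arms was tested as the difference of these effects. It was positive for 10 of 10 members and for 49.6% of all genes tested. Among the members it ran from 0.39 (Myl3) to 0.86 (Tpm3 and Tnnc1), with standard errors of 0.55 to 0.94. The median was 0.64 against -0.00 over all genes. By limma 0 of 10 members and 0% of all genes passed, and 0 of 10 members against 1.8% of all genes had an unadjusted p under 0.05. The median was -0.06 without paternal exercised replicate 1 and -0.38 when the title code entered the fit as a covariate. It was 0.97 with the hepatocyte score and 0.22 without the 4 libraries with hepatocyte transcripts.

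DESeq2, edgeR's quasi-likelihood test and limma voom were also run on the whole reads recovered from the table. Each called 0 of 10 members in every comparison. DESeq2 called 0.133% of all genes for maternal sedentary against control, 0.444% for exercise in the maternal arm, 0.496% for paternal exercised against control, 0.00741% (1 gene) for exercise in the paternal arm and 1.38% for any difference among the groups. For the 3 other comparisons it called 0% of all genes. The comparisons with controls share the same 3 control libraries, so their directions are not independent of each other.

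**Figure D3:**
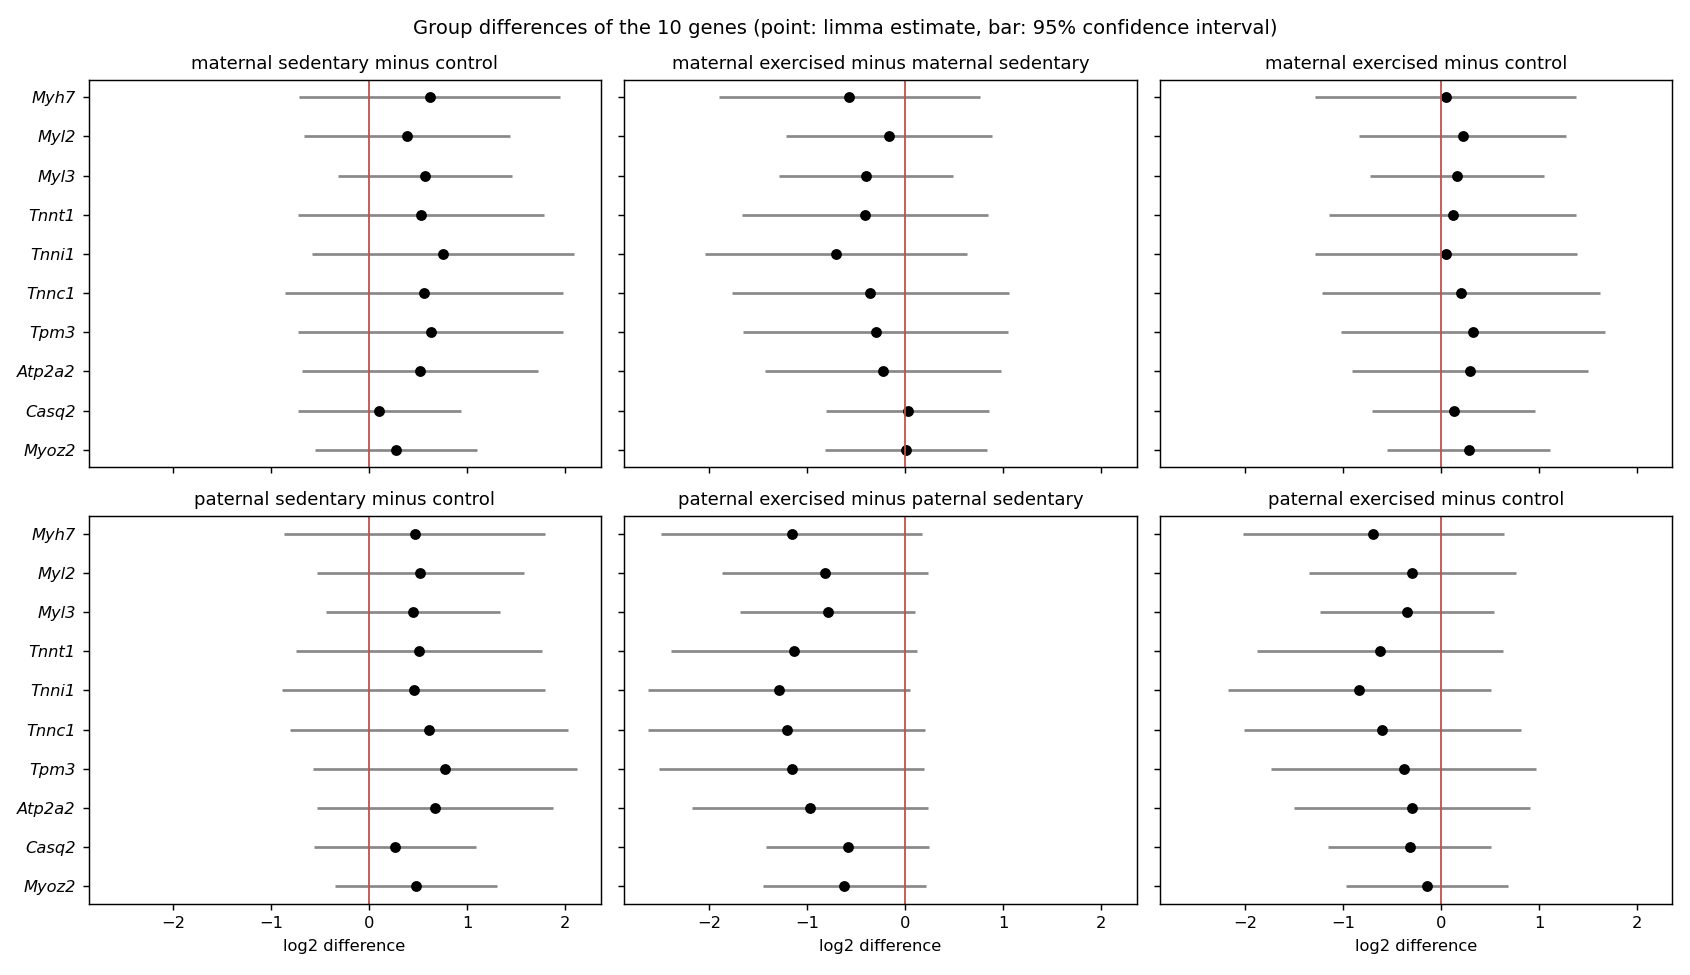
Differences of the 10 genes for 6 comparisons on the log2 scale (horizontal axis); points are limma estimates, bars 95% confidence intervals and the vertical line marks 0. Every bar crosses 0, including those of Tnni1 (-2.62 to 0.05) and Myl3 (-1.68 to 0.10) for exercise in the paternal arm.

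The share of slow myosin does not depend on library scaling. Of the summed level per kb of the adult heavy chains Myh7, Myh2 (type IIa), Myh1 (type IIx) and Myh4 (type IIb), Myh4 took 90.5% to 97.5% in every library. Myh7 took 0.186%, 0.818% and 1.36% in control, 1.18%, 0.952% and 0.592% in maternal sedentary and 1.18%, 0.771% and 0.421% in maternal exercised libraries. It took 1.37%, 1.00% and 0.73% in paternal sedentary and 0.0908%, 0.777% and 0.715% in paternal exercised libraries. The order of libraries on this ratio was close to that on the normalized counts, with the same pair far below the rest.

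Group means of the Myh7 share were 0.787% ± 0.585 (SD, n = 3) in control, 0.909% ± 0.297 in maternal sedentary, 0.79% ± 0.378 in maternal exercised, 1.03% ± 0.319 in paternal sedentary and 0.528% ± 0.379 in paternal exercised libraries. In exact two-sided permutation tests of 6 pairs of groups, the smallest p was 0.2, for exercise in the paternal arm (0.96 after adjustment over the 6), and 3 against 3 libraries cannot go below 0.1. The exact p of the other 5 pairs ran from 0.4 to 1. Myh2, the next slowest of the heavy chains, was also lowest in paternal exercised replicate 1 (0.946% of the sum) and second lowest in control replicate 1 (1.23%).

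**Figure D4:**
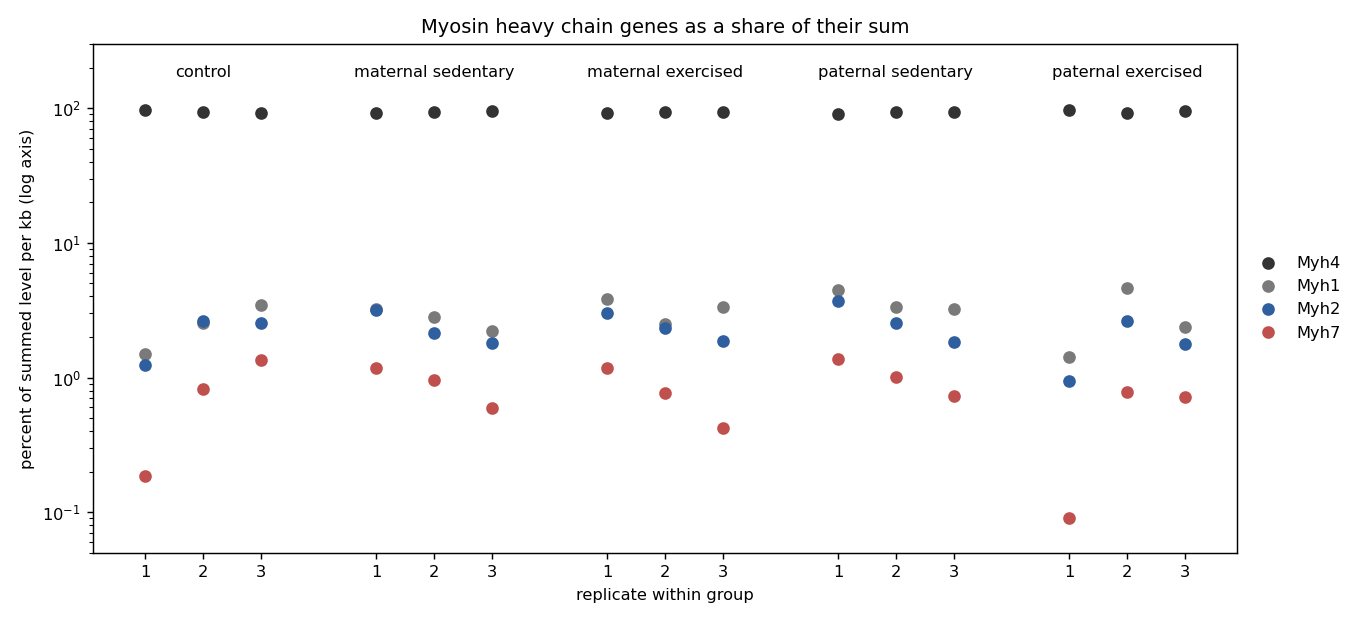
Each adult myosin heavy chain gene as a percent of their summed level per kb of merged exons (log axis) in every library, ordered by group and replicate. Myh4 exceeds 90% throughout, and Myh7 lies between 0.0908% and 1.37%.

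Ratios of each slow gene to its fast counterpart, taken per kb within a library, carried the same pattern. Myh7 over Myh4 ranged from -10.07 to -6.05 on the log2 scale with a median of -6.89, and Atp2a2 over Atp2a1, the fast pump, from -9.47 to -6.08 with a median of -7.10. Myl3 over Myl1 was the highest of the ratios, with a median of -3.24, a slow share of 9.58% of the pair. Paternal exercised replicate 1 was lowest for Myh7/Myh4, Myl2/Mylpf, Myl3/Myl1, Tnnt1/Tnnt3, Tnni1/Tnni2, Tpm3/Tpm1, Atp2a2/Atp2a1 and Casq2/Casq1, with control replicate 1 next. For Myoz2/Myoz1 their places were exchanged, at -6.54 for control replicate 1.

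The slow side of each pair varied more than the fast side. Over the 15 libraries the log2 standard deviation was 0.91 for Myh7 against 0.29 for Myh4, 0.96 for Tnni1 against 0.16 for Tnni2, 0.80 for Atp2a2 against 0.23 for Atp2a1 and 0.52 for Casq2 against 0.35 for Casq1. Slow and fast partners correlated negatively across the 15 libraries, with r from -0.73 (Myl3 with Myl1) to -0.39 (Casq2 with Casq1) in the 9 pairs used, a description of values that share a library's scaling. Tnnc1 is left out of the ratios because the row of its counterpart Tnnc2 stood at only 31.2 to 115 normalized counts, and 74% of its exon length is shared with Ube2c on the other strand. Of Atp2a1's exon length 21.9% overlaps Rabep2, also on the other strand.

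**Figure D5:**
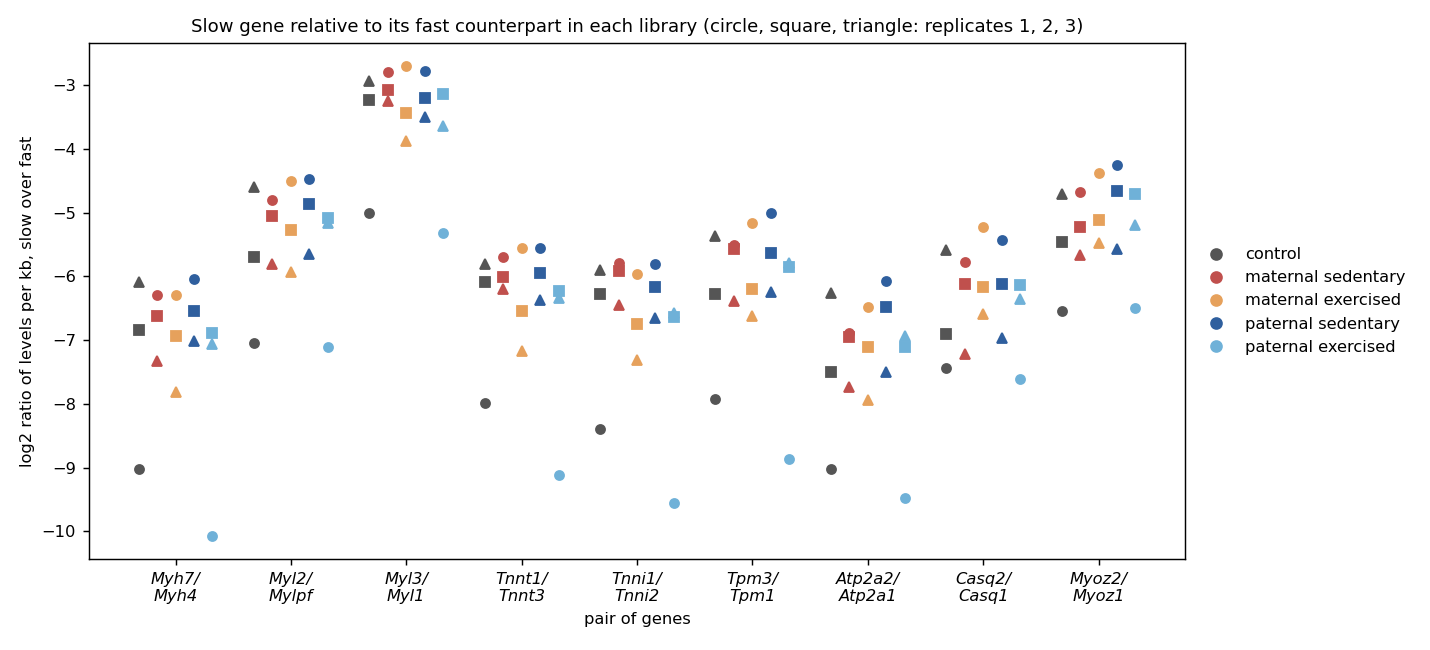
Log2 ratio of the level per kb of each slow gene to that of its fast counterpart in every library (vertical axis), for 9 pairs; colours are groups, shapes are replicates. In 8 of the pairs the lowest point is paternal exercised replicate 1, and in the ninth, Myoz2/Myoz1, it is control replicate 1.

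Other genes known from slow fibres were described from a list of 14, of which 13 were tested and Pln, the SERCA inhibitor phospholamban, did not pass the filter on low values. All 13 correlated positively with the mean of the 10 members over the 15 libraries, with a median r of 0.71 against -0.00 over the 13489 other genes tested. Myh7b, a slow-type myosin gene, had an r of 0.94 and ranged from 30.6 to 526 normalized counts. Without paternal exercised replicate 1 and control replicate 1 its r was 0.72. How far the r of the other listed genes and of the marker sums below rest on that pair is not given. Mb (myoglobin) had 0.88, Fhl1 0.87, Hspb6 0.81 and Ankrd2 0.74, while Smpx (0.21) and Myl6b (0.13) hardly followed the members.

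In the paternal arm 13 of these 13 genes had lower means in exercised libraries, with a median of -0.32 log2 against 0.01 over all genes tested. By limma 0 passed, and 3 had an unadjusted p under 0.05, a level that 3.76% of all genes reached. Most of these genes followed the members across libraries, so their direction is not independent of that of the members. The members' median was -0.27 without paternal exercised replicate 1, and the dependence of this list on that library was not tested. Sln, the SERCA inhibitor sarcolipin, averaged 26.8 ± 14.8 (SD, n = 3) normalized counts in paternal exercised and 63.4 ± 32.5 in paternal sedentary libraries, a log2 difference of -1.26 ± 0.51 (SE). In the maternal arm Sln averaged 61.6 ± 20.8 in exercised and 37.4 ± 20.9 in sedentary libraries (a log2 difference of 0.78 ± 0.51), and maternal sedentary minus control was -0.62 ± 0.51. The difference between its exercise effects, 2.04 ± 0.73, did not pass (limma adjusted p = 0.9995, unadjusted 0.0133). The alkali light chain gene Myl6b differed by -0.39 ± 0.21, the small heat shock protein gene Cryab by -0.31 ± 0.19 and Csrp3, a Z-disc protein gene, by -0.41 ± 0.22. In the maternal arm 9 of 13 had lower means in exercised libraries (median -0.23), and against controls maternal sedentary libraries had higher means for 10 of 13 (median 0.11), with 0 passing in either. Paternal sedentary libraries had higher means than controls for 9 of 13 (median 0.14), maternal exercised libraries for 8 (0.12) and paternal exercised libraries for 3 (-0.32), again with 0 passing by limma.

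The 31 genes listed as regulators of the slow programme, among them calcineurin subunits, NFAT, MEF2, TEAD and PGC-1 genes, did not share 1 direction. Of these, 11 correlated positively and 20 negatively with the members' mean, with a median r of -0.12. The highest were Prox1 (0.80), a homeobox factor of slow fibres, Esrrg (0.73), an oestrogen-related receptor, and Vgll2 (0.71), a TEAD cofactor, and the lowest was Camk2a (-0.63). By limma 0 of 31 passed in any comparison, with medians between -0.04 and 0.03 log2. At an unadjusted p under 0.05 there were 0 to 4, the 4 for paternal exercised against control, where 13.7% of all genes reached that level.

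Prox1 averaged 97.1 ± 31.7 (SD, n = 3) normalized counts in maternal sedentary against 47.7 ± 15.9 in control libraries, a log2 difference of 1.01 ± 0.36 (SE) that did not pass (limma adjusted p = 0.9995). Paternal sedentary libraries, at 79.5 ± 20.1, differed from the same controls by 0.75 ± 0.36, which did not pass either (limma adjusted p = 0.92). Sox6, a repressor of slow genes, stood at 3635 ± 543 in paternal exercised against 3026 ± 205 in paternal sedentary libraries (0.26 ± 0.12) and at 3249.7 ± 295 in maternal exercised against 2719 ± 128 in maternal sedentary libraries (0.25 ± 0.12), with adjusted p of 0.991 and 0.516 by limma. Ppargc1b, a PGC-1 coactivator gene, was at 126 ± 9.21 against 178 ± 38.7 in the paternal arm (-0.48 ± 0.22) and at 122 ± 29.0 against 175 ± 15.4 in the maternal arm (-0.54 ± 0.22). Nfatc3 differed by 0.54 ± 0.16 between paternal exercised and control libraries (limma adjusted p = 0.284).

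Of 15 fast contractile genes, 13 correlated negatively with the members' mean (median r = -0.58). The 13 include Tnnc2 (-0.37), whose row was left out of the ratios above. The exceptions were Myh2 (0.80) and Myh1 (0.63), the heavy chains of type IIa and IIx fibres, while Myh4 stood at -0.71. By limma 0 of 15 passed in any comparison. Their medians lay between -0.21 and 0.05 log2, and Myh2 differed by -0.37 ± 0.27 (SE) for exercise in the paternal arm and by 0.25 ± 0.27 between maternal sedentary and control libraries.

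Among the 13489 other genes tested, the one most like the members' mean across the 15 libraries was Gm34302 (r = 0.96), at only 1.14 to 23.3 normalized counts, followed by Ldhb (0.96), the lactate dehydrogenase subunit of oxidative tissue, at 2035 to 6034. Next came Dkk2 (0.94), a secreted Wnt antagonist, Pcp4l1 (0.94), Myh7b (0.94), Cyfip2 (0.94), Idh2 (0.92), the mitochondrial isocitrate dehydrogenase, Ablim1 (0.92), Nnt (0.92), the mitochondrial transhydrogenase, and Ndrg4 (0.91). In 9 of these 10 the lowest library was paternal exercised replicate 1. Without that library and control replicate 1 their r lay between 0.63 (Idh2) and 0.95 (Gm34302). The most opposite were Itsn1 (-0.86), Ppp1r3c (-0.84), a glycogen-targeting subunit of protein phosphatase 1, Eif4ebp2 (-0.82), Parm1 (-0.81) and Mrgpre (-0.80). In all, 72 of the other genes had an r above 0.8 and 5 one below -0.8. These correlations describe 15 libraries and carry no test.

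Since many of these genes are also expressed in the heart, markers of cardiac muscle were read in each library. Nppa had at most 2 reads, Nppb 1, Tbx20 4, Myl7 5 and Tnni3 10 in any library, so 5 of 10 cardiac markers had at most 10 reads throughout. Ryr2 was also low, at 0 to 22 reads with a median of 8. The others were higher: Myl4 had 141 to 437 reads, Tnnt2 48 to 180, Hcn4 48 to 173 and Myh6 8 to 233. The sum of the 10 was 16.2 to 33.6 RPM, with ranges of 19.3 to 32.0 in control, 22.4 to 30.4 in maternal sedentary, 27.7 to 32.7 in maternal exercised, 19.7 to 33.6 in paternal sedentary and 16.2 to 33.0 in paternal exercised libraries. Of the summed markers of other cells, those of endothelium (6 of 6 tested, 248 to 391 RPM) had an r of 0.74 with the members' mean, those of cardiac muscle 0.60 and those of smooth muscle and pericytes 0.57 (246 to 409). Fibroblast and tendon markers reached 1400 RPM in maternal exercised replicate 3, the library with the third lowest members, and 219 to 469 in the others. Schwann cell markers, at 113 to 328 RPM, had an r of 0.42. The myosin genes listed for muscle spindle fibres (Myh3, Myh8, Myh13 and Myh15) had 0.40, hepatocyte markers 0.21 and macrophage markers 0.04. Negative values were found for muscle fibre markers (-0.49), adipocytes (-0.45, 21.5 to 125 RPM), fibroblasts and tendon (-0.21) and erythrocytes (-0.21). Erythrocyte markers ran from 33.1 to 135 RPM and were highest in paternal exercised replicate 1, the library lowest in all 10 members. The part of these cells in the members' levels was not tested.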

How the data were processed

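RNA of quadriceps muscle was sequenced by the authors as ribosomal-depleted, stranded total RNA with 100 bp single-end reads, per the labels' protocols. Genome build mm10, DESeq2 1.11.8, featureCounts 1.5.2 and STAR 2.5.2b are named in the submitters' processing notes. The values deposited by the authors are a signal per gene and library, read counts over a size factor per library, as the values themselves show. All values (100%) were whole multiples of 1 read's worth (tolerance 0.001 of a read), so whole reads were recovered. By identifier 50376 of 50686 genes (99.4%) matched GENCODE M21, the source of coordinates and exon lengths.

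Groups followed the group label, with replicates numbered in accession order. The members and the lists were chosen with earlier results of these data known. The main test was limma 3.58.1 (R 4.3.3) on log2 of the value plus a pseudocount of 1, a scale that understates changes of low genes, with all 15 libraries in 1 fit and a trend, for the 13499 genes whose mean reached 10. P-values were adjusted by Benjamini-Hochberg over all genes, with a threshold of 0.05. DESeq2 1.42.0, edgeR 4.0.16 (quasi-likelihood) and limma voom were run on recovered reads as alternatives, beside other pseudocounts, filters and scalings, left-out libraries and covariates. On simulated data with changes set in advance in genes drawn from all those tested, the main fit met a set minimum of recovered genes. That minimum applied only to the larger changes. It does not show how often changes in genes as variable as the members would be found. The rule for named genes took the 10 members, their fast partners, Myh2 and Myh1, at most 4 genes per list by the smallest p over the 5 groups, and the 10 genes with the highest and 5 with the lowest r with the members' mean. Other list genes with high or low r, such as Mb and Esrrg, were named after their values were seen. Promoters came from RefSeq (GRCm38.p6). Other steps used scipy 1.17.1, pandas 2.3.3, numpy 2.4.6 and matplotlib 3.10.9 in Python.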

Additional observations from a re-analysis of the deposited data

How the results depend on the processing

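The count of members that passed was 0 of 10 for each of the 7 comparisons under each of the alternatives run, and the lowest adjusted p of any member in any of them was 0.337. Precision was limited by 3 libraries a group and the wide spread of these genes: over the 6 comparisons of groups the 95% intervals of Myh7 reached from a fold of 0.18 to one of 3.86. The median over the members leaned on single libraries. When each was left out in turn it ran from -0.07 to 0.97 for maternal sedentary against control, from -0.59 to 0.01 for exercise in the maternal arm, from -0.33 to 0.56 for maternal exercised against control, from 0.00 to 0.88 for paternal sedentary against control, from -1.45 to -0.27 for exercise in the paternal arm, from -0.95 to 0.25 for paternal exercised against control, and from -0.06 to 1.04 for the difference between the arms. Without the library with the least Myh7, or without the pair with the least (added after seeing the data), the median for exercise in the paternal arm was -0.27. With the title code (its opening letters and digit) as a covariate it was -0.51 for paternal sedentary against control and -0.38 for the difference between the arms, and the cause was not tested. Over all genes, where 0 passed by limma, DESeq2 called 18 for maternal sedentary against control, 60 and 1 for exercise in the maternal and paternal arms, 67 for paternal exercised against control and 186 for any difference. The title code as a covariate gave 16, 11 and 1 genes for exercise in the maternal arm, in the paternal arm and their difference, and the hepatocyte score 1 for maternal sedentary against control. Leaving out 1 library gave 0 to 1 genes for maternal sedentary against control, for exercise in the paternal arm and for paternal exercised against control, and 0 to 109 for exercise in the maternal arm (109 without maternal sedentary replicate 1). The correlations with Myh7 kept their direction under the 3 alternatives run for them, and the Myh7 share could not pass, since 3 against 3 libraries cannot go below 0.1. No paired analysis was possible because the labels carry no replicate numbers, and those used here were given in accession order.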
